A study of Mus musculus with 12 samples.

Results

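The 60 genes described here encode the machinery of mitosis and of the kinetochore in mouse hair follicle stem cells (HFSCs). They were taken by name from a list of regulators of mitotic entry, spindle checkpoint proteins, kinetochore subunits, mitotic kinesins, condensin subunits and spindle proteins, and no measured value enters that rule, although this list and the others were drawn up with earlier results of these data known. All 60 were found among the 21915 genes of the hair cycle table and among the 17885 genes of the Eed iKO table. RNA was sequenced from HFSCs sorted from the back skin of C57BL/6J mice, with a gate on cells positive for EpCAM and CD34, negative for Sca1 and high in α6-integrin, in 12 libraries with 3 in each of 4 groups. The anagen libraries came from wildtype mice of 28 to 30 days, when the follicle grows, and the telogen libraries from wildtype mice of 50 to 52 days, when it rests. The other groups were 70 days old. Eed iKO mice had both alleles of Eed, which encodes a core subunit of the histone methyltransferase PRC2, floxed, together with K15-CrePGR, a Cre recombinase driven by the keratin 15 promoter and switched on by RU-486. They were painted with RU-486 at 10 mg/ml in ethanol for 7 days from day 50, and their HFSCs are labelled Eed -/-. Controls received ethanol alone and are labelled wildtype, so the loss of Eed and the treatment with RU-486 cannot be told apart. The methods give each replicate as a separate biological sample, with both sexes in use. Per the paper, the replicates of the Eed iKO and control groups were drawn from more than a single litter. The litter of each library is not given.

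HFSCs of the bulge are quiescent for most of the hair cycle and divide in a short window when a new follicle grows. A cell that enters mitosis activates Cdk1 through cyclin B, condenses its chromosomes with condensin, and builds a kinetochore on each centromere, where the CENP-A nucleosome recruits an inner set of CENP proteins and the outer KNL1, NDC80 and SKA complexes that hold microtubules. The spindle checkpoint keeps the anaphase-promoting complex off until every kinetochore is attached. Most of these genes are transcribed in late S, G2 and M phase and are silent in resting cells, which makes their mRNAs common markers of dividing cells.

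Deposited values were counts normalized between libraries (normalized counts), and the 2 tables were normalized separately. In the Eed iKO table the values were whole multiples of a constant for each library. Reads on genes numbered 33269583 to 57063586 per library in the Eed iKO table. In the hair cycle table the most common low value implied 8977273 to 16530420 reads, but only 5.04% to 14.6% of the values were whole multiples of it. That depth is therefore an estimate, and scaling of whole counts by a single factor per library was not seen there. All 13 HFSC markers, among them Cd34, Itga6 and Sox9, passed the filter on low values in both tables. Of the 2 gate markers that changed, Cd34 had 6433, 9159 and 8295 normalized counts in the telogen libraries against 2955, 3233 and 4144 in anagen (log2 fold change -1.21, adjusted p = 0.00382), and Itga6, the gene of α6-integrin, was higher in anagen by 0.97 (adjusted p = 0.0144). The other 11 HFSC markers were not called. In the Eed iKO comparison Cd34 had a log2 fold change of -0.33 (adjusted p = 0.34) and Itga6 of 0.41 (adjusted p = 0.207). At an unadjusted p under 0.05, Itga6 and Krt14 (0.82, adjusted p = 0.104) were the HFSC markers higher in Eed iKO, against 8.38% of all genes. Nfatc1 (-0.39, adjusted p = 0.259) and Tcf7l1 (-0.47, adjusted p = 0.231) were those lower, against 6.33%. Eed mRNA stood at 1084, 1249 and 950.2 normalized counts in control replicates 1, 2 and 3 and at 933.3, 1361 and 1001 in the libraries labelled Eed iKO, a log2 fold change of -0.0055 with an adjusted p of 0.993. A count over the whole gene includes exons outside a deleted part, so this level does not check the labels, and the protein and its histone mark were not analysed here. Of the markers of other cells, melanocyte genes summed to 81.3 to 159.6 normalized counts in telogen and 437 to 803 in anagen, with Sox10 listed at 0 in all 6 libraries and Dct the 1 gene called of 4 tested. Of 4 fibroblast markers tested, Col1a1 and Dcn were called higher in anagen, while every anagen value of Col1a2 lay below every telogen value (adjusted p = 0.108). Of 2 endothelial markers Tek was called higher, with Cdh5 listed at 0 throughout. None of the 6 immune markers tested was called, and of 6 transit-amplifying markers Msx2 was called lower (-1.60, adjusted p = 0.00806). The 6 interfollicular epidermis markers, which include Krt1, Krt10 and the Sca1 gene Ly6a, had sums of 25265, 20580 and 57917 normalized counts in control replicates 1, 2 and 3 and of 29784, 20832 and 81374 in Eed iKO replicates 1, 2 and 3. Immune markers summed to 406, 466 and 1140 in control and 868, 732 and 911 in Eed iKO, and their mean of log2(normalized count + 1) was 4.24, 4.17 and 4.81 in control and 6.08, 5.63 and 5.14 in Eed iKO with no overlap of the groups. Among them Cd207, a marker of Langerhans cells, was at 0 in each control and at 18.3, 13.3 and 23.7 in Eed iKO (unadjusted p = 0.00242, adjusted p = 0.13), and Lyz2 was at 0 in the controls and Eed iKO replicate 3 and at 55.9 and 65.1 in replicates 1 and 2. Melanocyte markers had means of 3.16, 3.85 and 3.33 in control and 4.82, 4.97 and 4.65 in Eed iKO, with overlapping sums of 280 to 504 and 368 to 542. No marker of these lists passed an adjusted p under 0.05 in Eed iKO, where 4 of all genes did. At an unadjusted p under 0.05, Cd207 and Tyrp1 were higher and Col1a1 and Dlx3 lower among the markers of other cells. The part of RNA from other cells in the results below was not tested.

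The promoters of the member genes shared 2 short motifs that had not been used to choose them. The first is the cell cycle genes homology region (CHR), TTTGAA or TTCGAA, letters known to be bound by the MuvB core of the DREAM and MYB-FOXM1 complexes in genes of late cell cycle. The other is the CCAAT box, bound by NF-Y. RefSeq promoters of GRCm38.p6, running from 250 bases before to 50 bases after the start of the gene, were found for 49 of the 60 members, with 54 promoters in all. Searched on both strands, the CHR occurred in 39 of the 49 members (79.6%) and in 77.8% of their promoters, against 19.2% of all 32851 promoters of that length. Within 50 bases of the start, 35 of 49 members held it, or 68.5% of their promoters, against 5.31% of all promoters. The CCAAT box occurred in 35 of 49 members and 74.1% of their promoters, against 37.4% of all, and both motifs together in 31 members, or 63% of their promoters, against 7.52%. Neither motif contains the other, but their ends can share bases. A further motif searched for, that of E2F factors, occurred in only 4 of 49 members. It was in 7.41% of their promoters, against 2.26% of all promoters. No CHR was found in these windows for Birc5, Ccnb1, Cenpe, Cenpi, Cenpk, Mad2l1, Melk, Ncaph, Nuf2 and Nusap1. Promoters of Ccna2, Foxm1, Pbk, Aurkb, Incenp, Cdca2, Spc24, Ska1, Kif20a, Smc4 and Tpx2 were not used here.

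**Figure D1:**
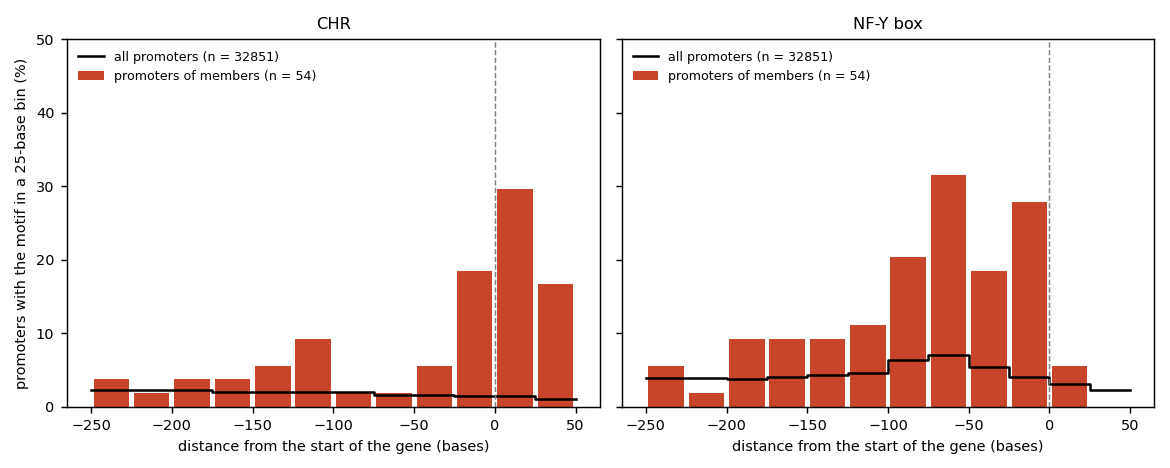
Share of promoters (%) with the CHR (left) or the box bound by NF-Y (right) starting in each 25-base bin, against the distance from the start of the gene in bases. Bars are the 54 promoters of members and the line is all 32851 promoters; in members the CHR peaks at 29.6% in the first 25 bases after the start, where 1.43% of all promoters hold it, and the NF-Y box at 31.5% between 75 and 50 bases before it, against 6.99%.

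To show how the motifs sit, the window from 100 bases before to 20 bases after the start is printed 5′ to 3′ on the strand of the gene (GRCm38.p6), with CHR and CCAAT letters on either strand in capitals. The genes were taken from those described below, and include Ccnb1, which holds CCAAT boxes and no CHR, and Ska3, which holds a CHR and did not differ between telogen and anagen. For a gene with several promoters, the first that held a CHR in this window was printed.
Cdk1 (chr10:69352893-69353012, minus strand): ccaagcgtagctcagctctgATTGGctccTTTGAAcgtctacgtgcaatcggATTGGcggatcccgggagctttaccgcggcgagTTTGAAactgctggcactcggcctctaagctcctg
Ccnb2 (chr9:70421535-70421654, minus strand): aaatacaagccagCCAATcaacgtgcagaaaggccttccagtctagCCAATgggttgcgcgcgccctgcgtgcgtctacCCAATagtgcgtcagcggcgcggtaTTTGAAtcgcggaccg
Ccnb1 (chr13:100786467-100786586, minus strand): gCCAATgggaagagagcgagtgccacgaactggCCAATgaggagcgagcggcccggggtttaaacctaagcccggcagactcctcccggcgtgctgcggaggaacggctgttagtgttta
Bub1 (chr2:127831840-127831959, minus strand): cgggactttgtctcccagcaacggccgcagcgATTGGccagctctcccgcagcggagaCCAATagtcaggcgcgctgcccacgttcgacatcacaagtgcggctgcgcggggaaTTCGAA
Ttk (chr9:83834589-83834708, plus strand): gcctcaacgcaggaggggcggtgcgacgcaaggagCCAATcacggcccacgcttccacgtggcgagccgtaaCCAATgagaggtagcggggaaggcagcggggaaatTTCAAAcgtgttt
Cdc20 (chr4:118437324-118437443, minus strand): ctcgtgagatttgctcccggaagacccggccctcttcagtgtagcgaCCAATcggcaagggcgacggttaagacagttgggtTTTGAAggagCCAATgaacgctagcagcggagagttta
Bub3 (chr7:131560270-131560389, plus strand): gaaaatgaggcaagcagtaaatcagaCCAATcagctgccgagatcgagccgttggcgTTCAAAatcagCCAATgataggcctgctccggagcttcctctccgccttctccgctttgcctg
Cenpf (chr1:189688067-189688186, minus strand): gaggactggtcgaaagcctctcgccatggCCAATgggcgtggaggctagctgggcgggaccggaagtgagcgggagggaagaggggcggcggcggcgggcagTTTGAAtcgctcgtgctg
Ska3 (chr14:57826144-57826263, minus strand): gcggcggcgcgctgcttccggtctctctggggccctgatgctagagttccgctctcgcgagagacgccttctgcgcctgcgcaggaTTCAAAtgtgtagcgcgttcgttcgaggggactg
Kif11 (chr19:37376282-37376401, plus strand): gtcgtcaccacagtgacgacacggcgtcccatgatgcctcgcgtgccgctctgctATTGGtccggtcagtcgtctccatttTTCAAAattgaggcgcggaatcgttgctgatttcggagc
Ncapg (chr5:45669825-45669944, plus strand): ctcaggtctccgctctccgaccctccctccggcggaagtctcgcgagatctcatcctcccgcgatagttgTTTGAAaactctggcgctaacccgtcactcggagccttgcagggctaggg
Top2a (chr11:99024170-99024289, minus strand): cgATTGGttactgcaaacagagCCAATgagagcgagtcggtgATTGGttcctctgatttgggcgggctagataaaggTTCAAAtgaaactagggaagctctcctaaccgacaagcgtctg
Racgap1 (chr15:99651637-99651756, minus strand): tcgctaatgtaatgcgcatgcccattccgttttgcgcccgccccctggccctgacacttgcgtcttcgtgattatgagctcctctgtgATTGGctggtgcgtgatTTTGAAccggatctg
Cdk1, Ccnb2, Bub1, Ttk, Cdc20, Bub3, Cenpf, Kif11, Top2a and Racgap1 carried at least 1 motif of each kind in this window. Members with and without a CHR overlapped in their change over the hair cycle. The median log2 fold change from telogen to anagen was 3.90 over the 38 members with a CHR that were detected in telogen, with a range from 0.26 to 6.64, and 4.48 over the 10 without, with a range from 1.49 to 5.33. In the Eed iKO comparison the medians were 1.05 over 39 members and 0.24 over 9, with overlapping ranges of -0.12 to 2.28 and -0.51 to 1.37. No test was made of these medians.

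The comparison of anagen with telogen asks which of these genes follow the growth phase of the follicle. The anagen mice were also younger than the telogen mice, so phase and age cannot be told apart. Nearly all of the 60 genes were higher in anagen HFSCs. Of the 60 members, all of which passed the filter on low values, 57 were higher in anagen at an adjusted p under 0.05 (limma on log2(normalized count + 1), Benjamini-Hochberg adjusted over 13457 genes) and 0 were lower, where 7.22% of all genes tested were called higher and 4.35% lower. At an unadjusted p under 0.05 the count was 58, against 15.1% of all genes called higher and 27.3% called in either direction, and 52 also had a log2 fold change over 2, the threshold of the methods, against 3.33% of all genes. For 58 members every anagen library lay above every telogen library, which 18.1% of all genes did. The median log2 fold change was 3.98 over the 60 members and 3.96 over the 59 that were not listed at 0 in every telogen library, beside 0.013 over all genes tested. The filter keeps a gene that is expressed in only 1 group, so members near 0 in telogen, such as Bub1 and Cdca5, passed it through anagen alone. Without the filter 53 of the 60 members were called higher, against 4.96% of 17713 genes. Members together held 8598, 9511 and 8019 normalized counts in telogen replicates 1, 2 and 3 and 96915, 79599 and 60499.9 in anagen replicates 1, 2 and 3. Their mean sum was thus 9.07 times higher in anagen, and their share of all normalized counts was 0.0705% to 0.0747% in telogen and 0.459% to 0.746% in anagen. In sorted bulk RNA, more dividing cells and more of these mRNAs in each cell cannot be told apart. Cd34 and Msx2 were lower and Itga6, Dct, Col1a1, Dcn and Tek higher in the same anagen libraries, and their part in these changes was not tested. Below, values are normalized counts in replicates 1, 2 and 3 in that order, fold changes are on the log2(normalized count + 1) scale with their standard error (SE), and n is 3 libraries in each group.

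**Figure D2:**
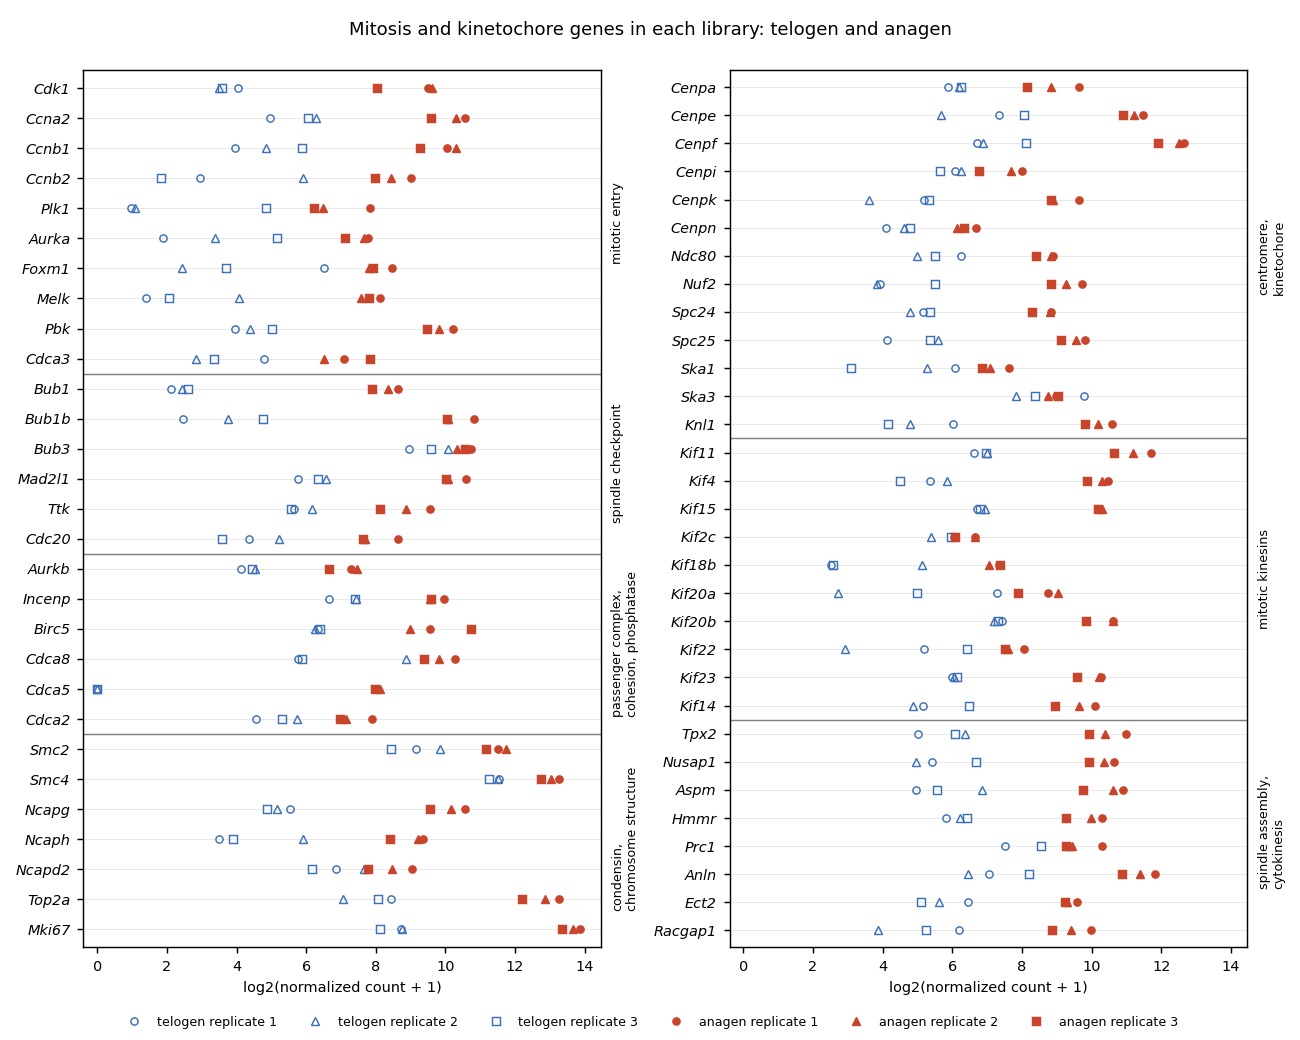
Level of each of the 60 member genes on the horizontal axis, as log2(normalized count + 1), in the 3 telogen libraries (open blue symbols) and the 3 anagen libraries (filled red symbols), grouped by role, with circle, triangle and square for replicates 1, 2 and 3. Anagen symbols lie right of all telogen symbols for 58 genes, the exceptions being Ska3 and Prc1, and Cdca5 is listed at 0 in all 3 telogen libraries.

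All 10 regulators of mitotic entry were called higher in anagen, with a median log2 fold change of 4.73 and a range from 3.48 to 5.39. Cdk1, the kinase that drives entry into mitosis, stood at 15.6, 10.4 and 10.9 in telogen and 719, 788 and 259 in anagen (log2 fold change 5.33 ± 0.50, adjusted p = 0.000102). Its 3 telogen libraries lay close together and far below the lowest anagen library. Ccnb1, its main cyclin partner, had 14.4, 27.7 and 58.0 in telogen and 1059, 1254 and 617 in anagen (log2 fold change 4.98 ± 0.49, adjusted p = 0.000135). For Ccnb2, the second B-type cyclin, the values were 6.74, 58.9 and 2.53 in telogen and 519, 344 and 249 in anagen (log2 fold change 4.91 ± 0.86, adjusted p = 0.00473). Telogen replicate 2 was the high one among the resting libraries for Ccnb2. Polo-like kinase Plk1, which matures the centrosome, was near 1 normalized count in 2 telogen libraries, with 0.967, 1.11 and 27.8 in telogen and 228, 88.4 and 74.1 in anagen (log2 fold change 4.55 ± 0.99, adjusted p = 0.014), and the centrosomal kinase Aurka gave 2.74, 9.46 and 34.7 in telogen and 217, 201 and 138 in anagen (log2 fold change 4.03 ± 0.73, adjusted p = 0.00587). Foxm1, the forkhead factor that activates many genes of G2 and M phase, varied widely within telogen, with 91.0, 4.42 and 12.0 in telogen and 349, 221 and 243 in anagen (log2 fold change 3.84 ± 0.84, adjusted p = 0.0142). Cyclin A gene Ccna2 and the kinase genes Pbk and Melk rose by log2 fold changes of 4.38 ± 0.40, 5.39 ± 0.39 and 5.33 ± 0.69. Cdca3, which promotes the loss of the mitotic inhibitor Wee1, had the smallest change of this group (3.48 ± 0.63).

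Spindle checkpoint genes split into 5 with large changes and Bub3 with a small one. Bub1b, which encodes the checkpoint protein BubR1, had the largest log2 fold change of any member detected in telogen, with 4.50, 12.5 and 26.0 in telogen and 1790.5, 1067 and 1049 in anagen (log2 fold change 6.64 ± 0.54, adjusted p = 4.4e-05). The kinase gene Bub1 followed, with 3.33, 4.42 and 5.11 in telogen and 396, 327 and 234 in anagen (log2 fold change 5.90 ± 0.50, adjusted p = 5.48e-05). Both were low in all 3 telogen libraries and well expressed in all 3 anagen libraries. Mad2l1, which encodes the Mad2 inhibitor of Cdc20, went from 53.7, 93.5 and 79.6 to 1533, 1069.6 and 1033 (adjusted p = 3.26e-05), and Ttk, the Mps1 kinase at the head of the checkpoint, from 49.5, 71.3 and 46.0 to 752, 464 and 277 (log2 fold change 3.05 ± 0.41, adjusted p = 0.00107). Cdc20, the activator of the anaphase-promoting complex that the checkpoint restrains, showed 19.4, 36.3 and 10.9 in telogen and 396, 207 and 197 in anagen (log2 fold change 3.61 ± 0.53, adjusted p = 0.00168). Bub3, whose product binds Bub1 and BubR1 and also takes part in mRNA processing, was already well expressed at rest, with 493, 1079.7 and 764 in telogen and 1719, 1300.0 and 1497 in anagen (log2 fold change 1.01 ± 0.28, adjusted p = 0.0404). Its groups did not overlap, but the call was lost without any 1 of 5 of the 6 libraries, at adjusted p-values up to 0.167. A promoter of Bub3 is among those printed above with both motifs. In another promoter of the gene the CHR began at -167 from the start and the CCAAT boxes at -198 and -156, outside the printed window.

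The 4 subunits of the chromosomal passenger complex, which corrects wrong attachments of microtubules, were all called higher. Its kinase Aurkb had 16.3, 22.3 and 20.7 in telogen and 157, 177 and 99.0 in anagen (log2 fold change 2.77 ± 0.46, adjusted p = 0.00372). Birc5, or survivin, had a tight telogen group and the widest anagen group of the complex, with 80.7, 75.4 and 83.0 in telogen and 758, 504 and 1697 in anagen (log2 fold change 3.43 ± 0.41, adjusted p = 0.000436). Anagen replicate 3 was the high library there, whereas it was the lowest of its group for most members. The scaffold gene Incenp rose by 2.54 ± 0.30 on the log2 scale, and the borealin gene Cdca8 by 2.99 ± 0.67, the latter with 1 high telogen library in 53.4, 463 and 57.6. Cdca5, which encodes the cohesion protein sororin (chr19:6084983-6091777, plus strand, GRCm38), was given as 0 in each telogen library and as 258, 276 and 252 in anagen (adjusted p = 3.03e-05), and no fold is given for it. Cdca2, a targeting subunit of phosphatase PP1 on chromatin, changed by 2.13 ± 0.47.

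Of the 13 centromere and kinetochore genes, 12 were called higher in anagen, with a median log2 fold change of 3.54 over all 13. Cenpa, the histone H3 variant that marks the centromere, had 57.2, 72.5 and 75.8 in telogen and 789, 451 and 284 in anagen (log2 fold change 2.76 ± 0.40, adjusted p = 0.00159). The inner kinetochore genes of the constitutive centromere network changed unequally, Cenpk by 4.41 ± 0.50 but Cenpn by 1.88 ± 0.49 and Cenpi by 1.49 ± 0.43. Cenpe, the kinesin that carries chromosomes to the spindle equator, had 161, 50.3 and 265 in telogen and 2866, 2399 and 1926 in anagen (log2 fold change 4.18 ± 0.48, adjusted p = 0.000366), and Cenpf, a large corona protein, had 104, 118 and 278 in telogen and 6394, 5881 and 3875 in anagen (log2 fold change 5.12 ± 0.36, adjusted p = 2.83e-05). Every anagen library exceeded the highest telogen library of Cenpe and Cenpf several times over. The 4 genes of the NDC80 complex, which makes the main contact with microtubules, moved as a set. Ndc80 itself had 75.7, 30.9 and 44.3 in telogen and 469.9, 459 and 340.3 in anagen (log2 fold change 3.13 ± 0.40, adjusted p = 0.000727), and Nuf2, Spc24 and Spc25 changed by 4.85 ± 0.50, 3.54 ± 0.37 and 4.47 ± 0.43. Knl1, the scaffold on which Bub proteins assemble, had the largest change of the kinetochore genes (5.20 ± 0.46).

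Of the 2 members in the SKA complex, which strengthens the grip of NDC80 on microtubules, Ska1 was called higher and Ska3 was not. Ska1 had 66.8, 37.8 and 7.59 in telogen and 198, 134 and 115 in anagen (log2 fold change 2.37 ± 0.69, adjusted p = 0.0482), a call lost without any 1 of 5 of the 6 libraries. Ska3 (chr14:57806561-57826185, minus strand) had 881, 226 and 329 in telogen and 501, 430.3 and 522 in anagen (log2 fold change 0.26 ± 0.42, adjusted p = 0.731, 95% interval -0.66 to 1.18). Ska2, the remaining subunit, is in the list of other mitosis genes and was named after its values were seen. It had 171, 213 and 257 in telogen and 457, 547 and 393 in anagen (log2 fold change 1.13 ± 0.28, adjusted p = 0.0271). Telogen replicate 1 held the highest Ska3 value of all 6 libraries, and the groups overlapped. Per kilobase of its longest coding transcript, Ska3 was the third highest member in telogen at 212 normalized counts per kb, after Smc4 at 645 and Bub3 at 228. In its annotation, 2.88% of the exon bases of Ska3 also lie on Sap18.

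Mitotic kinesins, the motors that build and slide the spindle, were called higher in 9 of 10 cases, with a median log2 fold change of 3.70. Kif11, the plus-end motor that pushes spindle poles apart, had 98.1, 126 and 124 in telogen and 3313, 2332 and 1596 in anagen (log2 fold change 4.31 ± 0.29, adjusted p = 2.64e-05). Kif4, a motor on chromosome arms, had the largest change of the kinesins (4.98 ± 0.38), and Kif15, Kif23 and Kif14 changed by 3.43 ± 0.24, 3.96 ± 0.30 and 4.06 ± 0.46. Kif23 encodes the motor of centralspindlin and Kif15 can back up Kif11 in holding the spindle apart. The chromokinesin gene Kif22 and the depolymerase gene Kif18b rose by 2.89 ± 0.74 and 3.84 ± 0.70, and Kif20b by 3.03 ± 0.27. For Kif20a, which moves the passenger complex to the midzone, the change was 3.56 ± 0.89, but 29.3% of its exon bases also lie on Cdc23. Kif2c, or MCAK, a depolymerase of the centromere (chr4:117159639-117182639, minus strand), had 65.2, 41.1 and 61.4 in telogen and 100.3, 100.3 and 65.9 in anagen (log2 fold change 0.66 ± 0.43, adjusted p = 0.355). Every anagen value of Kif2c lay above every telogen value, but by less than the test could call.

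Genes of chromosome structure included the most abundant members. Mki67, which coats mitotic chromosomes and is the standard marker of cycling cells, had 421, 431 and 276 in telogen and 14954, 12975 and 10404 in anagen (log2 fold change 5.10 ± 0.23, adjusted p = 1.95e-06), the smallest p-value of all 13457 genes tested. It made up 3.44% to 4.89% of the summed counts of the members in telogen and 15.4% to 17.2% in anagen. Top2a, the topoisomerase that untangles sister chromatids, had 349, 132 and 265 in telogen and 9798, 7469 and 4716 in anagen (log2 fold change 4.92 ± 0.36, adjusted p = 2.83e-05). Condensin subunits changed by very different amounts. Smc4, an ATPase shared by both condensins and the highest member per kb in both groups, had 2993, 2934 and 2421 in telogen and 9753, 8392 and 6929.6 in anagen (log2 fold change 1.58 ± 0.19, adjusted p = 0.000506). Ncapg, a subunit of condensin I alone, had 45.4, 34.6 and 28.2 in telogen and 1500.1, 1152 and 757 in anagen (log2 fold change 4.91 ± 0.35, adjusted p = 2.83e-05). The other condensin I subunits Ncaph and Ncapd2 changed by 4.55 ± 0.60 and 1.53 ± 0.44, and the second ATPase Smc2 by 2.33 ± 0.32. Per kb, Smc4 stood at 645 in telogen and 1937 in anagen, where Top2a followed at 1404 and Mki67 at 1270.

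**Figure D3:**
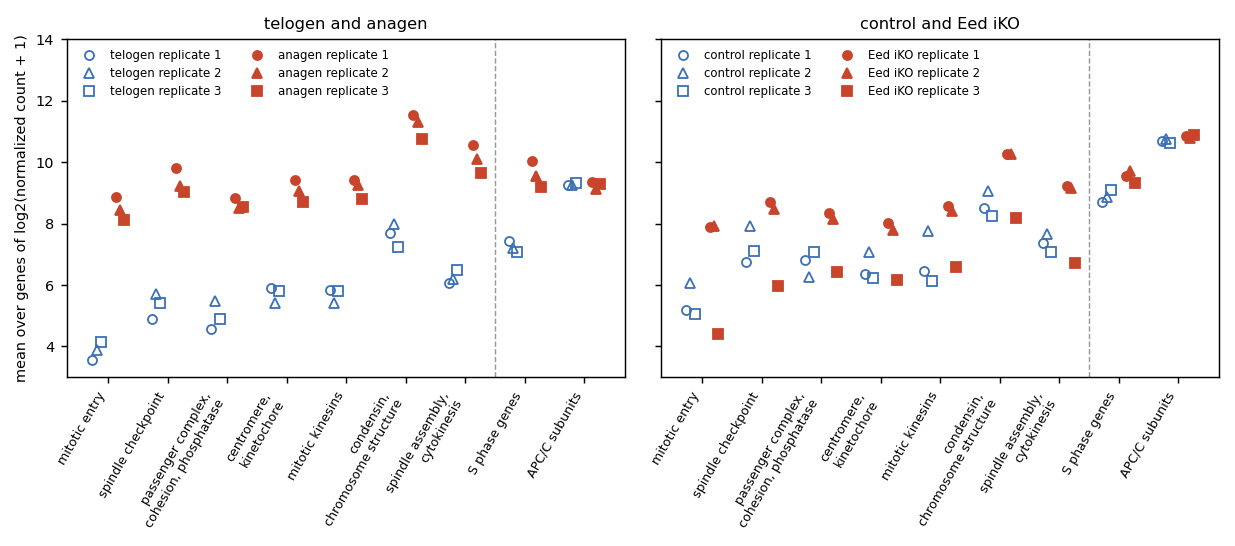
Mean over the genes of each role of log2(normalized count + 1), on the vertical axis, in each library of the hair cycle table (left) and the Eed iKO table (right), with open blue symbols for telogen or control and filled red symbols for anagen or Eed iKO. Right of the dashed line stand S phase genes and subunits of the anaphase-promoting complex (APC/C), whose means stay between 9.14 and 9.36 on the left, and on the right Eed iKO replicate 3 (square) lies within or below the controls in all 7 roles while replicates 1 and 2 lie above them.

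Spindle assembly and cytokinesis genes were called higher in 7 of 8 cases, with a median log2 fold change of 4.23. Tpx2, which activates Aurora A on the spindle, had 31.4, 82.2 and 66.3 in telogen and 2051, 1346 and 972 in anagen (log2 fold change 4.62 ± 0.40, adjusted p = 7.48e-05). The spindle proteins Nusap1, Aspm and Hmmr changed by 4.61 ± 0.42, 4.63 ± 0.47 and 3.69 ± 0.34. Anln, Ect2 and Racgap1, which position and contract the cleavage furrow, changed by 4.14 ± 0.41, 3.65 ± 0.38 and 4.32 ± 0.55. Prc1, which bundles the microtubules of the midzone (chr7:80294450-80316259, plus strand), had 183, 655 and 370.3 in telogen and 1267, 694 and 618 in anagen (log2 fold change 1.20 ± 0.43, adjusted p = 0.0975). Telogen replicate 2 exceeded anagen replicate 3 for Prc1, and without that telogen library the adjusted p was 0.0299.

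The anagen libraries were ordered alike for most members. Replicate 1 was the highest of the 3 for 47 of 60 members (78.3%) and replicate 3 the lowest for 51 (85%), where 34.3% and 36.9% of all genes tested had that order. No such order was seen in telogen, where the highest library was replicate 1 for 15 members, replicate 2 for 24 and replicate 3 for 20. The median coefficient of variation of the members was 28.7% in anagen and 47.2% in telogen, against 20.8% and 30.8% over all genes tested. Leaving out each library in turn kept 46 to 56 members called, and 46 were called in every such fit. The 11 that lost their call in at least 1 fit were Plk1, Foxm1, Bub3, Cdca8, Cdca2, Cenpi, Cenpn, Ska1, Kif20a, Kif22 and Ncapd2.

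Other genes of mitosis came from a list of 60 that holds no member and was drawn up with earlier results known. All 60 were tested, and 33 were higher and 1 lower at an adjusted p under 0.05, with a median log2 fold change of 1.44. The largest changes were those of Depdc1a (6.19), Cep55, which acts in the last step of cytokinesis (5.62), and Shcbp1 (4.29). The gene that fell was Pttg1, which encodes securin, the inhibitor of separase, with 672 ± 245 in telogen and 252 ± 24.7 in anagen (SD, n = 3, log2 fold change -1.36, adjusted p = 0.0134). Cdc25b (-0.54, adjusted p = 0.268) and the kinetochore gene Cenpt (-0.13, adjusted p = 0.892) were the next lowest. Of 14 subunits of the anaphase-promoting complex, 0 were called, with 1 higher and 2 lower at an unadjusted p under 0.05 and a median of 0.0079. Among 16 S phase genes, 14 were called higher, with a median of 2.03. The CHR was found in 28 of the 51 other mitosis genes with a promoter (54.9%).

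The comparison of Eed iKO with control asks whether HFSCs that lose PRC2 at rest turn these genes on. The 3 libraries labelled Eed iKO did not act alike. In replicates 1 and 2 the summed level of the members was 41087 and 39021 normalized counts, above the controls at 14839, 21279 and 13615, whereas replicate 3 stood at 14149. As a group, 0 of the 59 members tested passed an adjusted p under 0.05, where 0.0267% of 15008 genes did, 0.02% higher and 0.00666% lower, and Melk did not pass the filter. At an unadjusted p under 0.05, 8 were higher, against 8.38% of all genes, and 0 were lower, against 6.33%. These 8 were Cdk1, Bub3, Cdca8, Ska1, Knl1, Kif18b, Ncapd2 and Nusap1, with adjusted p-values between 0.141 and 0.297, and 5 of them also passed the log2 fold change of 1.5 of the methods, against 0.826% of all genes. No member was lower past these thresholds, against 0.926% of all genes. All Eed iKO libraries lay above all control libraries for 6 members tested, against 10.2% of all genes. The log2 fold change was above 0 for 54 members, against 49.9% of all genes, with a median of 0.94 beside -0.0011 over all genes tested. With DESeq2 on the recovered reads 6 members were higher at an adjusted p under 0.05, against 2.96% of all genes in that fit, and with edgeR 0 were, against 0.0267%.

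**Figure D4:**
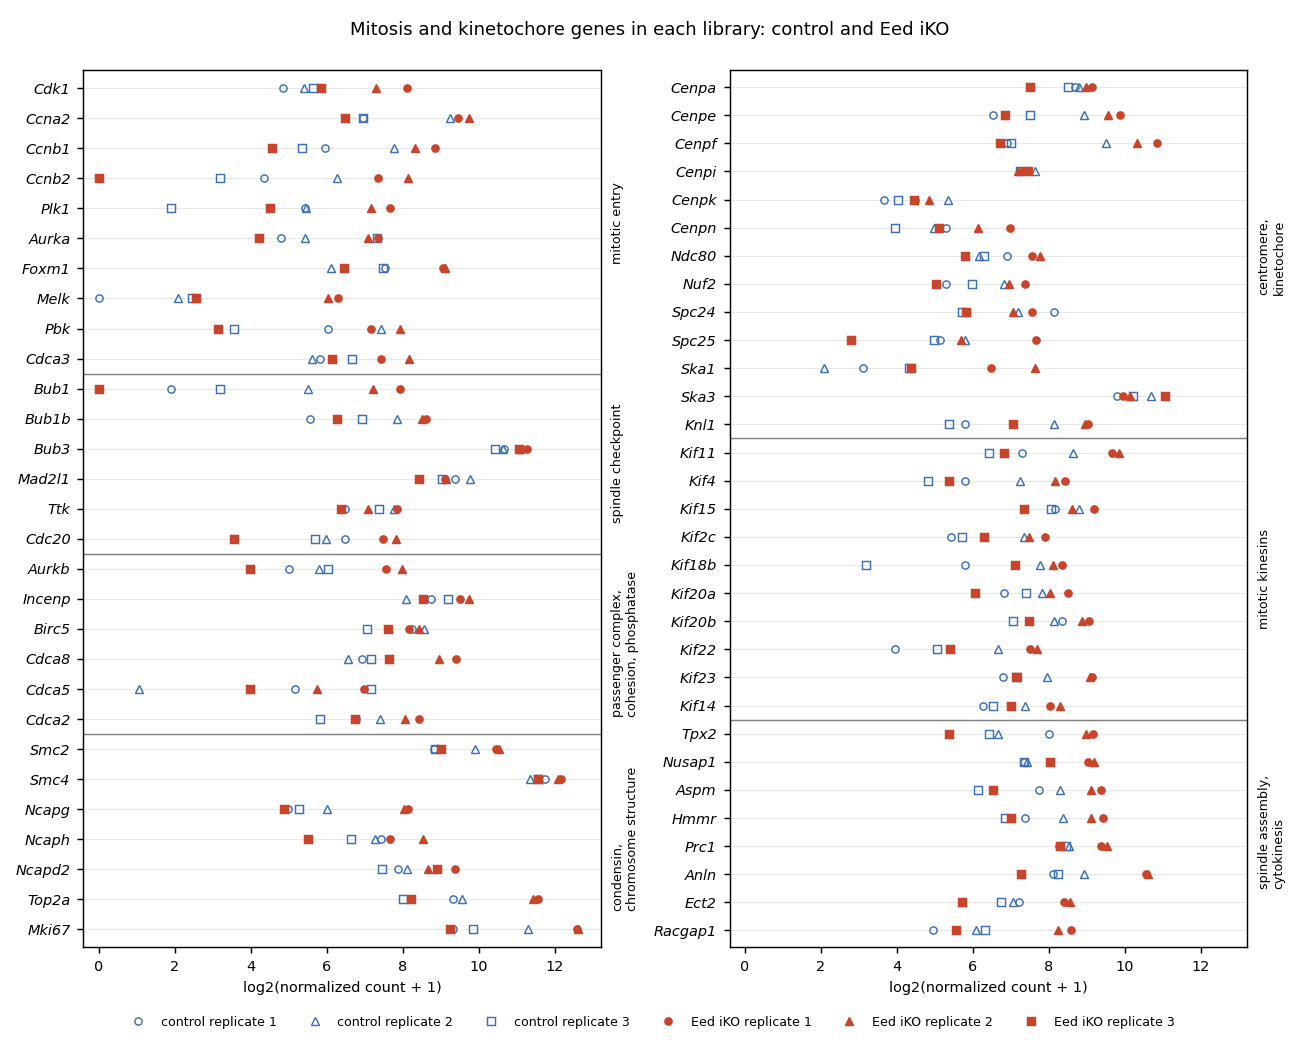
Level of each of the 60 member genes on the horizontal axis, as log2(normalized count + 1), in the 3 control libraries (open blue symbols) and the 3 libraries labelled Eed iKO (filled red symbols), grouped by role, with circle, triangle and square for replicates 1, 2 and 3. Eed iKO replicates 1 and 2 lie right of the controls for 52 and 49 genes, whereas the square of replicate 3 is the lowest of its group for 57.

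Gene by gene, Eed iKO replicate 1 exceeded all 3 controls for 52 of 60 members (86.7%) and replicate 2 for 49 (81.7%), where 26.6% and 28.6% of all genes tested did. Replicate 3 exceeded them for 8 members (13.3%, against 25.5% of all genes), lay within their range for 29 and below all of them for 23 (38.3%, against 25.6%). It was the lowest of the 3 Eed iKO libraries for 57 members (95%), against 39.1% of all genes. The share of all normalized counts held by the members was 0.0989% and 0.0883% in Eed iKO replicates 1 and 2, 0.0347% in replicate 3 and 0.0327% to 0.0543% in the controls. Among the controls replicate 2 was the highest for 39 members (65%), against 30.7% of all genes. Eed iKO replicate 3 also had the highest sum of interfollicular epidermis markers, 81374, and control replicate 3 the next, 57917. By their mean log2 level, immune markers were highest in Eed iKO replicate 1 and lowest in replicate 3 of that group. By their sums of 868, 732 and 911 in Eed iKO replicates 1, 2 and 3, replicate 3 was instead the highest. The part of either list in the result was not tested. Without Eed iKO replicate 3 the median log2 fold change was 1.77, 44 of 60 members were higher at an unadjusted p under 0.05, against 9.65% of all genes in that fit, and 5 at an adjusted p under 0.05, against 154 of 15386 genes. These 5 were Cdca8, Top2a, Mki67, Nusap1 and Anln. Without replicate 1 or replicate 2 the median was 0.48 or 0.54 and 5 or 4 members were higher at an unadjusted p under 0.05, against 5.19% or 5.24% of all genes. The number of members that passed therefore depended on which of these libraries was kept, and the sign of the log2 fold change of 17 members turned in at least 1 alternative, Ttk, Aurka, Cdc20, Cenpa and Ccnb2 among them.

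Mitotic entry genes had a median log2 fold change of 0.89 over the 9 tested. Cdk1 had 27.8, 41.2 and 49.0 in control and 276, 158 and 57.3 in Eed iKO (log2 fold change 1.80 ± 0.64, adjusted p = 0.23), with all Eed iKO libraries above all controls but replicate 3 close to them. The cyclin genes showed the split of the libraries plainly. Ccnb1 stood at 61.1, 219.9 and 39.9 in control and 460.2, 323 and 22.7 in Eed iKO (log2 fold change 0.89 ± 1.03, adjusted p = 0.738). Ccnb2 had 19.4, 75.8 and 8.16 in control and 163, 284 and 0 in Eed iKO (log2 fold change 0.57 ± 1.80, adjusted p = 0.915), and its value in Eed iKO replicate 3 was 0 reads of 41278402. For Plk1 the values were 42.3, 43.3 and 2.72 in control and 204, 143 and 21.7 in Eed iKO (log2 fold change 2.19 ± 1.11, adjusted p = 0.386), for Aurka 27.1, 42.2 and 159 in control and 162, 135 and 17.8 in Eed iKO (log2 fold change 0.37 ± 0.92, adjusted p = 0.887) and for Foxm1 186, 68.2 and 179 in control and 533, 559 and 87.0 in Eed iKO (log2 fold change 1.17 ± 0.70, adjusted p = 0.462). In each of Plk1, Ccnb1 and Foxm1, replicates 1 and 2 exceeded every control and replicate 3 did not. Melk, left out of the test, had 0, 3.25 and 4.53 in control and 77.4, 65.1 and 4.94 in Eed iKO.

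In the spindle checkpoint group only Bub3 had an unadjusted p under 0.05, with 1641, 1609.7 and 1385 in control and 2460.2, 2186 and 2127 in Eed iKO (log2 fold change 0.55 ± 0.16, adjusted p = 0.161). All 3 Eed iKO libraries of Bub3, replicate 3 included, were above all controls. Bub1 had 2.78, 44.4 and 8.16 in control and 243, 149 and 0 in Eed iKO (log2 fold change 1.51 ± 1.83, adjusted p = 0.75), again with 0 reads in Eed iKO replicate 3, and Bub1b 46.5, 229.6 and 121 in control and 391, 365 and 77.1 in Eed iKO (log2 fold change 1.03 ± 0.72, adjusted p = 0.537). Cdc20 had 88.8, 62.8 and 50.8 in control and 179.6, 226 and 10.9 in Eed iKO (log2 fold change 0.24 ± 0.98, adjusted p = 0.935). Mad2l1 had the lowest log2 fold change of the members, with 663, 878 and 529.5 in control and 549, 567 and 342 in Eed iKO (log2 fold change -0.51 ± 0.30, adjusted p = 0.449), and Ttk showed 88.1, 218 and 165 in control and 232, 135 and 83.0 in Eed iKO (log2 fold change -0.09 ± 0.52, adjusted p = 0.954). Neither Mad2l1 nor Ttk separated the groups.

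The passenger complex gene Cdca8 had 121, 93.2 and 143 in control and 682, 498 and 198 in Eed iKO (log2 fold change 1.78 ± 0.48, adjusted p = 0.141), with no overlap of the groups. Aurkb, its kinase partner, had 31.2, 55.2 and 65.3 in control and 188, 254 and 14.8 in Eed iKO (log2 fold change 0.89 ± 0.94, adjusted p = 0.713) and Birc5 305, 380.2 and 132 in control and 289, 343 and 196 in Eed iKO (log2 fold change 0.11 ± 0.44, adjusted p = 0.933), and Incenp had a log2 fold change of 0.59 ± 0.38 (adjusted p = 0.504). The 4 subunits thus gave log2 fold changes from 0.11 to 1.78 in the same libraries. Cdca5, listed at 0 in telogen of the other table, had 34.7, 1.08 and 143 in control and 125, 53.1 and 14.8 in Eed iKO, with the highest value in a control.

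Kinetochore genes had a median log2 fold change of 0.42 over 13. Ska1 had the largest value of all members tested, 2.99, from 7.63, 3.25 and 19.0 in control and 88.2, 197 and 19.8 in Eed iKO (SE 0.97, adjusted p = 0.19), where Eed iKO replicate 3 lay just above the highest control. Knl1 had 54.1, 282 and 40.8 in control and 521, 498 and 132 in Eed iKO (log2 fold change 1.91 ± 0.75, adjusted p = 0.274), with control replicate 2 above Eed iKO replicate 3. Cenpf had 118, 726 and 129 in control and 1829, 1286 and 105 in Eed iKO (log2 fold change 1.49 ± 0.99, adjusted p = 0.508) and Cenpe 92.3, 482 and 179.5 in control and 933, 754 and 115 in Eed iKO (log2 fold change 1.11 ± 0.78, adjusted p = 0.537). Both were highest in Eed iKO replicates 1 and 2, and replicate 3 was within or below the controls. Cenpa had 413, 441 and 360.0 in control and 558, 507 and 179.9 in Eed iKO (log2 fold change -0.12 ± 0.42, adjusted p = 0.922) and Ndc80 119, 70.4 and 78.0 in control and 186, 216 and 54.4 in Eed iKO (log2 fold change 0.58 ± 0.59, adjusted p = 0.695). The members with the lowest log2 fold changes after Mad2l1 were Spc24, with 279, 145 and 51.7 in control and 189, 133 and 55.4 in Eed iKO (log2 fold change -0.20 ± 0.67, adjusted p = 0.922), and Cenpa. Ska3 gave 880.4, 1641 and 1198 in control and 992, 1133 and 2134 in Eed iKO (log2 fold change 0.16 ± 0.31, adjusted p = 0.855), and here replicate 3 was the highest Eed iKO library, the reverse of its order for 57 members.

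Among kinesins, Kif18b had the second largest log2 fold change of the members tested, with 54.1, 218 and 8.16 in control and 323, 278 and 138 in Eed iKO (log2 fold change 2.28 ± 0.95, adjusted p = 0.297). Plk1 was the third, at 2.19. Kif11 had 156, 394 and 85.2 in control and 812, 924 and 112 in Eed iKO (log2 fold change 1.33 ± 0.78, adjusted p = 0.451), and the other 8 kinesins lay between 0.05 for Kif15 and 1.64 for Kif22. Among genes of chromosome structure, Ncapd2 had 235, 277 and 175 in control and 671, 405 and 478 in Eed iKO (log2 fold change 1.17 ± 0.33, adjusted p = 0.148) and was one of the 8 members with Eed iKO replicate 3 above all controls. Mki67 had 639, 2543 and 928 in control and 6125, 6301 and 609 in Eed iKO (log2 fold change 1.32 ± 0.79, adjusted p = 0.462). Its value in Eed iKO replicate 3 was below all 3 controls, and in replicates 1 and 2 well above the highest. Top2a had 642, 755 and 256 in control and 3005, 2750.3 and 299.6 in Eed iKO (log2 fold change 1.44 ± 0.76, adjusted p = 0.403), Ncapg 30.5, 63.9 and 38.1 in control and 279.6, 263 and 28.7 in Eed iKO (log2 fold change 1.59 ± 0.83, adjusted p = 0.401) and Smc4 3452, 2613 and 3000.3 in control and 4569.8, 4345 and 3027 in Eed iKO (log2 fold change 0.38 ± 0.19, adjusted p = 0.374). Smc4 was again the highest member per kb, at 700.1 in control and 922 in Eed iKO.

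Among spindle and cytokinesis genes, Nusap1 had a narrow control group and all Eed iKO values above it, with 163, 170.1 and 161 in control and 519, 583 and 260.0 in Eed iKO (log2 fold change 1.37 ± 0.38, adjusted p = 0.143). Tpx2 had 255, 101 and 85.2 in control and 575, 507 and 40.5 in Eed iKO (log2 fold change 0.81 ± 0.89, adjusted p = 0.722) and Prc1 310.1, 369 and 348 in control and 663, 742 and 312 in Eed iKO (log2 fold change 0.65 ± 0.35, adjusted p = 0.417), both with replicate 3 within or below the controls. The remaining genes of this group had log2 fold changes between 0.55 for Ect2 and 1.67 for Racgap1.

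Of the 60 other mitosis genes, 0 passed an adjusted p under 0.05, and 12 were higher and 1 lower at an unadjusted p under 0.05, with a median log2 fold change of 0.40. The largest values were those of the minus-end motor gene Kifc1 (3.92, adjusted p = 0.225), Depdc1a (3.18, adjusted p = 0.296) and Troap (2.28, adjusted p = 0.426), each with overlapping groups. The smallest were Cenpu (-0.96, adjusted p = 0.509), Cenpm (-0.53, adjusted p = 0.912) and the CENP-A chaperone gene Hjurp (-0.47, adjusted p = 0.232), and Hjurp was the 1 gene lower at an unadjusted p under 0.05. All 16 S phase genes had a log2 fold change above 0, 6 of them at an unadjusted p under 0.05, with a median of 0.59. Subunits of the anaphase-promoting complex had a median of 0.17, with 0 of 14 called and 1 higher at an unadjusted p under 0.05.

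The 2 comparisons share no library. Set side by side over the 59 members tested in both, every member had a log2 fold change above 0 in the hair cycle. The 54 above 0 in both are therefore the 54 already counted in the Eed iKO comparison. The sizes were weakly related across genes, with a Pearson correlation of 0.21 and a Spearman correlation of 0.29. These are given as a description because genes of one program are not independent. They include Cdca5, whose hair cycle value rests on the added count of 1, as it was listed at 0 in telogen. Bub1b and Bub1 changed by 6.64 and 5.90 from telogen to anagen and by 1.03 and 1.51 from control to Eed iKO. Ska1, the largest in Eed iKO at 2.99, changed by 2.37 in anagen, and Mad2l1 was the lowest in Eed iKO at -0.51. The mean sum of the members was 9.07 times higher in anagen than in telogen and 1.90 times higher in Eed iKO than in control, where the SD of the Eed iKO sums, 14992, was about as large as the difference of the means of 31419 and 16577.

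**Figure D5:**
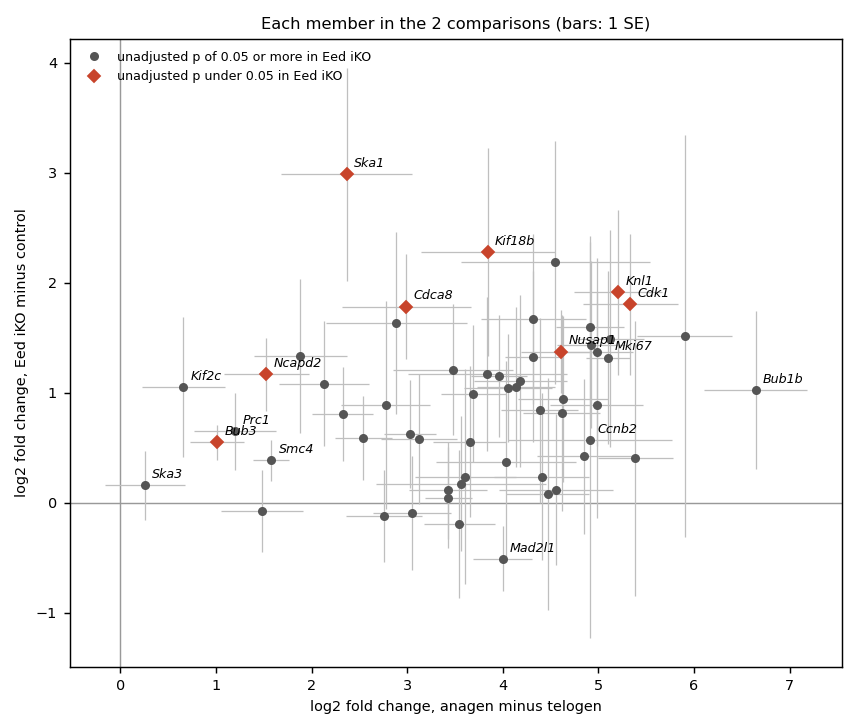
Log2 fold change of each member from telogen to anagen (horizontal axis) and from control to Eed iKO (vertical axis), with bars of 1 SE, for the 58 members tested in both tables and detected in telogen, with red diamonds for an unadjusted p under 0.05 in Eed iKO. All points lie right of 0, most lie above 0, only some of these with vertical bars that cross it, and Ska3, Kif2c and Prc1 stand at the left.

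Annotation limits a few of these values. More than 10% of the exon bases of Kif20a (29.3%, on Cdc23), Kif4 (15.1%, on Pdzd11), Ncapg (13.4%, on Lcorl), Ccna2 (12.5%, on Exosc9) and Prc1 (11.1%, on Rccd1) also lie on another gene in GENCODE vM21, and no source used here states that strand was used in counting.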

How the data were processed

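Per the labels and methods, the authors amplified total RNA of sorted HFSCs with the Ovation RNA-seq System V2, sequenced 150-nucleotide paired-end reads and quantified them on GENCODE vM20 transcripts with kallisto 0.42.5. The deposited signal is the normalized count of each gene from DESeq2. Deposited log2 fold changes and p-values of the authors were not used. The member genes and the other gene lists were chosen with earlier results of these data known. Each table was fitted alone with limma 3.58.1 (intensity trend, R 4.3.3) on log2(normalized count + 1), over genes that passed filterByExpr at a count minimum of 10. Of the Eed iKO values, 100% were whole multiples (within 0.01) of a constant per library, which gave reads for DESeq2 1.42.0 and edgeR 4.0.16 as alternatives. Tested on simulated data in which 200 genes had a log2 fold change of 2.5, limma recovered 100% in the hair cycle comparison (10 false calls among 13637 genes) and 99.5% in the Eed iKO comparison (4 among 15294). The members had a median log2 fold change of 0.94 in the Eed iKO comparison. Their median coefficient of variation there was 46.2% in control and 64.1% in Eed iKO. Recovery of changes of that size at that spread was not tested. Every member could be named, 25 core members were given by library, and of the other mitosis genes the 3 largest and 3 smallest log2 fold changes were named in each comparison. Lengths, positions and exon overlaps came from GENCODE vM21 (GRCm38).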

Additional observations from a re-analysis of the deposited data

How the results depend on the processing

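In the hair cycle comparison the members kept their count within 1.5 times under each alternative tried: 46 to 57 of 60 were called, and their median log2 fold change stayed between 3.81 and 4.14. Over all genes tested the 1556 calls fell to 842 without the intensity trend and ranged from 590 to 1534 when a library was left out. The 34 calls among other mitosis genes ranged from 17 to 34 in those fits. Ska3, not called, ranged from -0.16 to 0.82 in them.

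In the Eed iKO comparison the counts of members depended on the setting. At an adjusted p under 0.05 there were 0, with 6 under DESeq2 (Cdk1, Bub3, Cdca8, Ska1, Ncapd2 and Nusap1; its adjusted p was NA for 2 members) and 0 to 5 when a library was left out. At an unadjusted p under 0.05 the 8 members became 20 under DESeq2, 13 under edgeR and 4 to 44 when a library was left out, with 17 without control replicate 2. Past the thresholds of the methods the 5 became 9, 8, 3 without the intensity trend, and 1 to 34. Of all genes, 8.84% were higher at an unadjusted p under 0.05 with DESeq2 and 8.04% with edgeR. That share was 5.19% to 9.65% when a library was left out, with 7.31% without control replicate 2. The median log2 fold change of the members was 0.48 to 1.77 when a library was left out, and 0.75 without control replicate 1 and 1.31 without control replicate 2. Of the other mitosis genes, 4 passed an adjusted p under 0.05 with DESeq2, 6 to 21 an unadjusted p under 0.05 and 1 to 12 the thresholds of the methods when a library was left out. Over all genes tested, the 4 calls became 673 with DESeq2, 2 without the intensity trend and 1 to 188 when a library was left out. The 2207 genes at an unadjusted p under 0.05 ranged from 1388 to 2526, and the 263 past the thresholds of the methods from 217 to 449, with 425 without the filter on low values.

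The log2 fold change of 17 members, none of them called, turned sign in at least 1 alternative of the Eed iKO comparison. When a library was left out it ran from -0.92 to 3.15 for Ccnb2, -0.19 to 1.37 for Aurka, -0.65 to 1.87 for Pbk, -0.47 to 0.27 for Ttk, -0.53 to 1.60 for Cdc20, -0.34 to 0.42 for Birc5, -0.59 to 2.46 for Cdca5, -0.42 to 0.40 for Cenpa, -0.15 to 0.035 for Cenpi, -0.10 to 0.74 for Cenpk, -0.038 to 1.13 for Nuf2, -0.84 to 0.36 for Spc24, -1.06 to 1.38 for Spc25, -0.18 to 0.38 for Ska3, -0.35 to 0.56 for Kif15, -0.32 to 0.91 for Kif20a and -0.53 to 0.98 for Ncaph. Ccnb2 was also at -0.47 with a pseudocount of 0.1, and Cenpa at 0.033 with DESeq2 and 0.032 with edgeR.

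With the replicate number as a block, 1 member (Top2a) and 424 genes passed an adjusted p under 0.05 in the Eed iKO comparison. In that fit 24 members were higher at an unadjusted p under 0.05, against 10.8% of all genes, and 9 passed the thresholds of the methods. In the hair cycle the calls of Bub3, Cenpi and Cenpn were lost with this block. The numbers do not show a pairing: deviations of same-numbered libraries correlated at 0.039, 0.068 and 0.193 in the Eed iKO table and at -0.035, -0.071 and -0.029 in the hair cycle table, and not every library correlated best with its own number.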
